A study of Danio rerio with 9 samples.

Results

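DNA repair and Fanconi genes were followed in single zebrafish PGCs (primordial germ cells), the founders of the germline. The genes were taken by symbol from the deposited table, where names had to begin with fanc, rad, xrcc, ercc, msh, mlh, brca, parp or lig and a letter or number of the family, and the cohesin genes of the rad21 name and the proteasome shuttle genes of the rad23 name were left out. This gave 60 of 32266 annotated genes, sorted into 11 groups by repair role. The cells came from AB strain fish with a kop-egfp-nanos3-3ʹUTR transgene, which makes PGCs fluoresce green, and were picked by hand. They were taken at 6 hpf (hours post fertilization), when the embryo is at shield stage, at 11 hpf with 3 somites, and at 24 hpf, the prim-5 stage. At 24 hpf the trunk alone was dissociated, after removal of head, tail and yolk. Each stage has 3 cells, all from 1 embryo, named here by stage and cell number from 6_1 to 24_3. A stage is therefore 1 independent sample, so no difference between stages was tested, and the spread between cells of 1 embryo says nothing of the spread between embryos.

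DNA repair is divided by the kind of lesion. Base excision and single-strand break repair deal with damaged bases and nicks, nucleotide excision with bulky damage, mismatch repair with errors of replication, and end joining or homologous recombination with double-strand breaks. The Fanconi pathway handles crosslinks between the strands: a core complex of proteins attaches ubiquitin to the pair FANCD2 and FANCI, which brings nucleases and recombination factors to the stalled fork. In zebrafish this machinery matters for the germline, since fish lacking fancl or brca2 develop as males.

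Levels are FPKM, fragments scaled by transcript length and by the mapped fragments of the library, and so can be set side by side between genes. The paper gives the read pairs of each library, but the table has no read counts per gene, so the reads behind a value are unknown. The summed FPKM of a cell lay between 548917 and 613048. An exact 0 may stand for a gene that is silent or for one whose RNA was missed, and such genes are called listed at 0 below. Of the genes with at least 1 FPKM in all 8 other cells, 19.0% were below 1 in 24_1, against 4.06% to 8.25% in the other cells. Of 13 germline markers found in the table, 8 to 11 had an FPKM of at least 10 in each cell. Their summed level was lower at 24 hpf, with an FPKM of 16813, 31284 and 19836 in the 6 hpf cells, 43210.4, 35814 and 19363 in the 11 hpf cells and 10843, 12737 and 13287 in the 24 hpf cells. The gene nanos3 alone, at 7573 to 24068.5 FPKM, made up most of each sum. Whether reads of the transgene were counted as nanos3 was not tested. At 24 hpf 8 of the markers were at least 2-fold lower than at 11 hpf without overlap of cells, and 0 were higher. The means of piwil1 and tdrd5 were higher at 24 than at 11 hpf, at 14.9 against 6.73 and 11.6 against 7.82 FPKM. Muscle markers moved with the stage: of 18, 7 in 24_1, 11 in 24_2 and 1 in 24_3 reached an FPKM of 10, against at most 3 in any earlier cell, and their summed FPKM was 634, 2704.3 and 50.7 in these cells, against 0 to 52.8 at 6 and 11 hpf. In 24_3 mylz3 had 39.7 FPKM, tnnc2 5.45 and actc1b 4.11, and most other genes of the list were at 0. Epidermal markers summed to 0 to 21.2 at 6 hpf, 14.0 to 218 at 11 hpf and 74.1 to 211 at 24 hpf. Neural markers summed to 0 at 6 hpf, up to 22.4 at 11 hpf and 21.4 to 72.4 at 24 hpf. The sum at 24 hpf was sncb alone, with elavl3, neurog1, gfap and sox2 listed at 0 in each cell there. That at 11 hpf was neurog1 in 11_2 and elavl3 in 11_3, with sncb listed at 0. Blood markers summed to at most 17.9 and those of notochord and endoderm to at most 15.5, with col2a1a and sox17 listed at 0 in every cell. The part of such RNA in the repair gene values was not tested.

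Most repair genes were present at a low level and in some cells only. Of the 60, 41 passed a filter that asked for 3 or more of the 9 cells to reach an FPKM of 1. The other 19 comprise 7 that stayed below 1 everywhere (ercc5, fance, msh5, parp4, parp6a, parp6b and xrcc3), fancb and fancm with 1 cell each, and 10 with 2 cells (ercc3, ercc6l2, fancf, msh3, msh4, parp8, rad50, rad51d, rad54b and rad9b). Of the 540 values, 285 (52.8%) were listed at 0. Over the 41 genes that passed, 38.5% of values were listed at 0, against 30.0% over all 9329 genes that passed. The median gene of the 41 had a mean of 12.5 FPKM over the 9 cells, against 17.8 for all genes that passed. The genes parp1 and rad18, 2 of the 41, reached an FPKM of 1 in all 9 cells (4.88%), against 18.5% of all genes that passed.

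**Figure D1:**
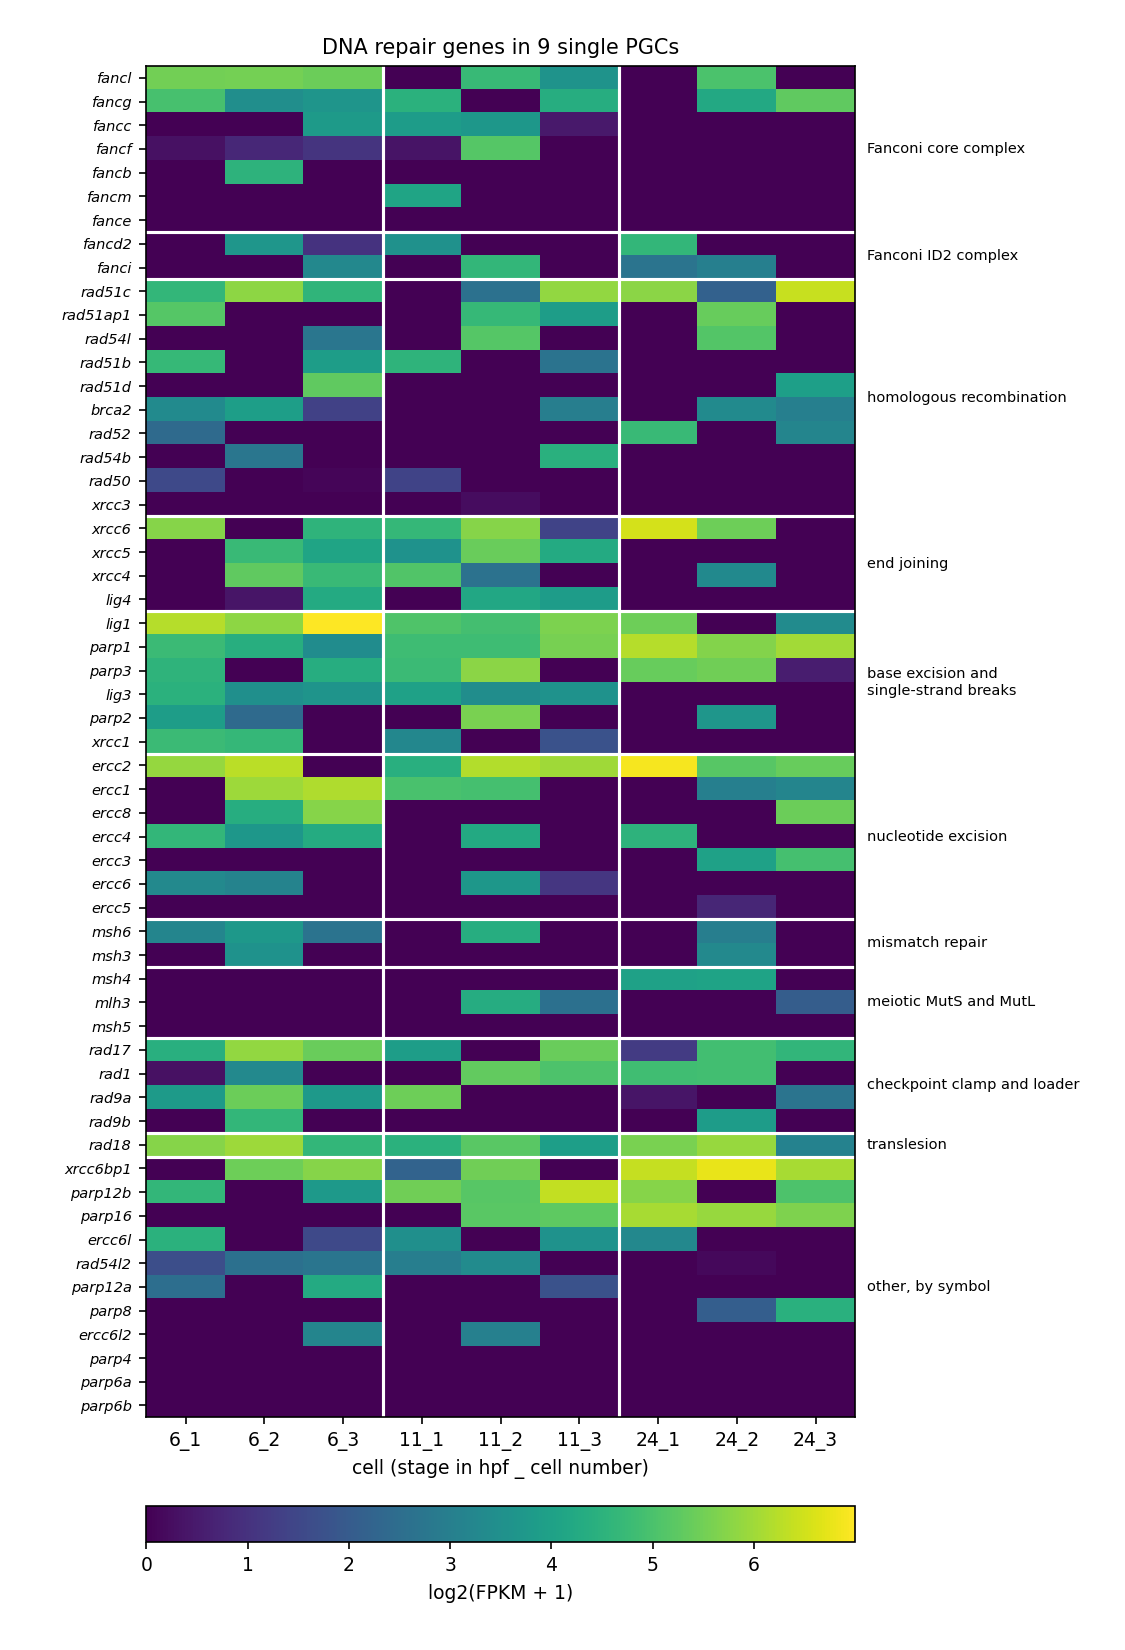
Heat map of log2(FPKM + 1) for 57 of the 60 repair genes (rows, grouped by pathway and ordered by mean FPKM in each) in the 9 PGCs (columns, 3 for each of 6, 11 and 24 hpf). The darkest colour is 0, which fills most of the map, and parp1 and rad18 are the rows with no such cell.

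Fewer repair genes were detected per cell at the later stages, as was the case for genes in general. The number of the 60 genes with an FPKM of 1 or more was 28, 30 and 34 in the 6 hpf cells, 25, 30 and 26 in the 11 hpf cells, and 20, 27 and 22 in the 24 hpf cells. The 11 hpf cells lie within or below the range at 6 hpf, and each cell at 24 hpf lies below all cells at 6 hpf. As a share of the 41 genes that passed, detection averaged 68.3% ± 6.45 at 6 hpf, then 61.8% ± 6.14 at 11 hpf, then 48.8% ± 4.22 at 24 hpf (SD over the 3 cells, n = 1 embryo). For all 9329 genes the shares at the 3 stages were 74.1% ± 1.82, 67.2% ± 0.692 and 58.9% ± 6.86. The summed level did not follow the number of genes. The 60 genes together had an FPKM of 660.3, 856 and 793 in the 6 hpf cells, 533, 842 and 657 in the 11 hpf cells and 1050.6, 887 and 708 in the 24 hpf cells, ranges that overlap between all stages.

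**Figure D2:**
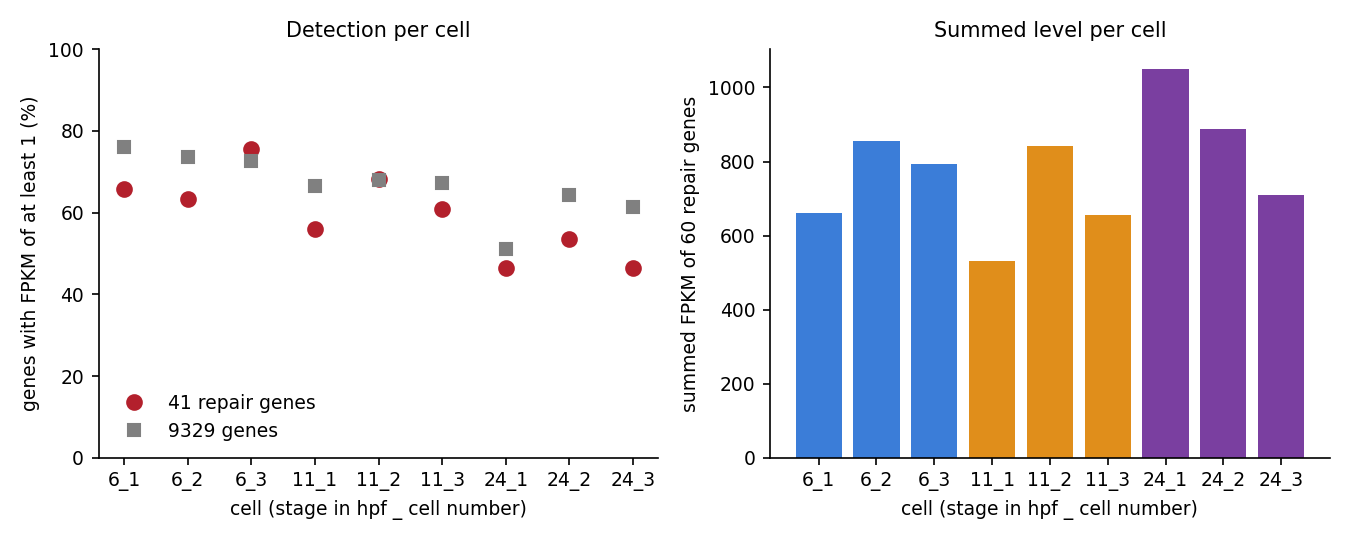
Left, share of genes with an FPKM of at least 1 in each PGC (percent), for the 41 repair genes that passed the filter (circles) and all 9329 genes that passed (squares). Right, summed FPKM of all 60 repair genes in each PGC, with bars coloured by stage. The share of repair genes is lowest in 24_1 and 24_3, at 46.3%, while the sum is highest in 24_1, at 1050.6.

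Transcripts of the Fanconi core genes in the choice by symbol were sparse at 24 hpf. The core gene fanca, which carries a clone name in the deposited data, is not among them. The Fanconi gene faap24, also outside the choice, had 3.37 FPKM in 6_1 and 15.6 in 24_1 and was listed at 0 elsewhere. Over the 7 core genes chosen and 3 cells, 9 of 21 values had an FPKM of at least 1 at 6 hpf, 8 at 11 hpf and then 3 at 24 hpf. None of the last were in 24_1, the cell with the most missed genes. Detection over all genes that passed the filter fell too, from 74.1% to 67.2% and 58.9%, but of these 7 genes only 3 passed. The ubiquitin ligase of the complex, fancl (ENSDARG00000007885), was the steadiest of them at 6 hpf, with 44.8, 45.6 and 41.7 FPKM in the 3 cells. At 11 hpf it was listed at 0 in 11_1 and had 25.2 and 11.2 FPKM in 11_2 and 11_3. At 24 hpf it was 31.4 in 24_2 and listed at 0 in the other cells. All cells at 6 hpf thus lay above all later ones, and the log2 difference was -1.78 for 11 minus 6 hpf (spread 2.47) and -1.97 for 24 minus 6 hpf (spread 2.90). Throughout, a log2 difference is that of the stage means of FPKM plus a pseudocount of 1, which understates changes of low genes, and its spread combines the SD of log2(FPKM + 1) among the cells of each stage, squared, added and rooted. Without 11_2 that for 11 minus 6 hpf was -2.77, and without 24_2, the 1 cell at 24 hpf with fancl, that for 24 minus 6 hpf was -5.49. Both differences of fancl are within their spread, which the cells at 0 enlarge.

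The core subunit fancc (ENSDARG00000055232) was at 12.98 FPKM in 6_3 alone at 6 hpf, had 13.6, 12.0 and 0.384 FPKM at 11 hpf and was listed at 0 in all cells at 24 hpf. The core subunit fancg (ENSDARG00000024967) went with the cell more than the stage: 30.3, 10.03 and 11.6 FPKM at 6 hpf, 21.2 and 19.7 in 11_1 and 11_3, 17.8 and 38.4 in 24_2 and 24_3, and listed at 0 in 11_2 and 24_1. The core subunit fancf had 34.9 FPKM in 11_2 and at most 1.07 elsewhere, fancb had 22.0 in 6_2 and the translocase fancm 16.0 in 11_1. Their target pair was likewise found in some cells only. The gene fancd2 (ENSDARG00000053574) had 11.7 and 1.05 FPKM in 6_2 and 6_3, 10.6 in 11_1 and 23.9 in 24_1, and was listed at 0 in the other 5 cells. Its partner fanci was between 5.42 and 23.7 in 4 cells. The 2 were found together in 6_3 and 24_1.

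Homologous recombination genes varied from cell to cell at every stage. The gene rad51c, which acts in strand exchange and in the processing of its intermediates, had 23.7, 54.9 and 23.1 FPKM at 6 hpf, 0, 5.07 and 56.8 in the 11 hpf cells and 53.8, 3.50 and 83.7 in those at 24 hpf, with overlap between all stages. The tumour suppressor gene brca2 (ENSDARG00000079015), which helps to start strand exchange, had 9.19, 14.2 and 1.55 FPKM at 6 hpf, was 6.98 in 11_3 and was 9.10 and 7.10 in 24_2 and 24_3. The gene rad51b, a relative of rad51c, was present in 2 cells at 6 hpf and 2 at 11 hpf (5.35 to 24.9 FPKM) and listed at 0 in all cells at 24 hpf. The genes rad51ap1, rad51d, rad52, rad54b, rad54l and rad50 reached an FPKM of 1 in 2 to 4 cells each, and xrcc3 in none. As a group, 16 of 33 values had an FPKM of at least 1 at 6 hpf, 13 at 11 hpf and 13 at 24 hpf.

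Detection of the 4 end joining genes in the choice by symbol was highest at 11 hpf and lowest at 24 hpf. Of 12 values, 7 had an FPKM of at least 1 at 6 hpf, 10 at 11 hpf and then 3 at 24 hpf. These are 58.3%, 83.3% and 25%, against 74.1%, 67.2% and 58.9% over all genes that passed. The 2 subunits of the Ku ring, which grips broken ends, parted at 24 hpf. The larger subunit xrcc5 (ENSDARG00000099298) was 0, 25.9 and 16.0 FPKM at 6 hpf, 10.9, 41.3 and 18.3 at 11 hpf and 0 in all 3 cells at 24 hpf. The smaller subunit xrcc6 (ENSDARG00000071551) was 52.1, 0 and 22.3 FPKM at 6 hpf, 24.2, 52.2 and 1.67 in the 11 hpf cells and 92.3, 43.0 and 0 in those at 24 hpf. Both Ku genes were thus found in 1 cell at 6 hpf, all 3 at 11 hpf and none at 24 hpf. The ligase lig4 was at 18.3 FPKM in 6_3 and 17.3 and 13.5 in 11_2 and 11_3, and was listed at 0 in all cells at 24 hpf. Its cofactor xrcc4 was found in 2 cells at 6 hpf, 2 at 11 hpf and 24_2 alone at 24 hpf (5.21 to 37.9 FPKM over these cells). End joining genes outside the choice by symbol did not all follow this pattern. The gene nhej1 was 72.7, 53.6 and 59.9 FPKM at 11 hpf and 0, 85.9 and 134 at 24 hpf. The gene dclre1c was found in 1 cell at 11 hpf and 2 at 24 hpf, and prkdc in 6_1 alone.

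**Figure D3:**
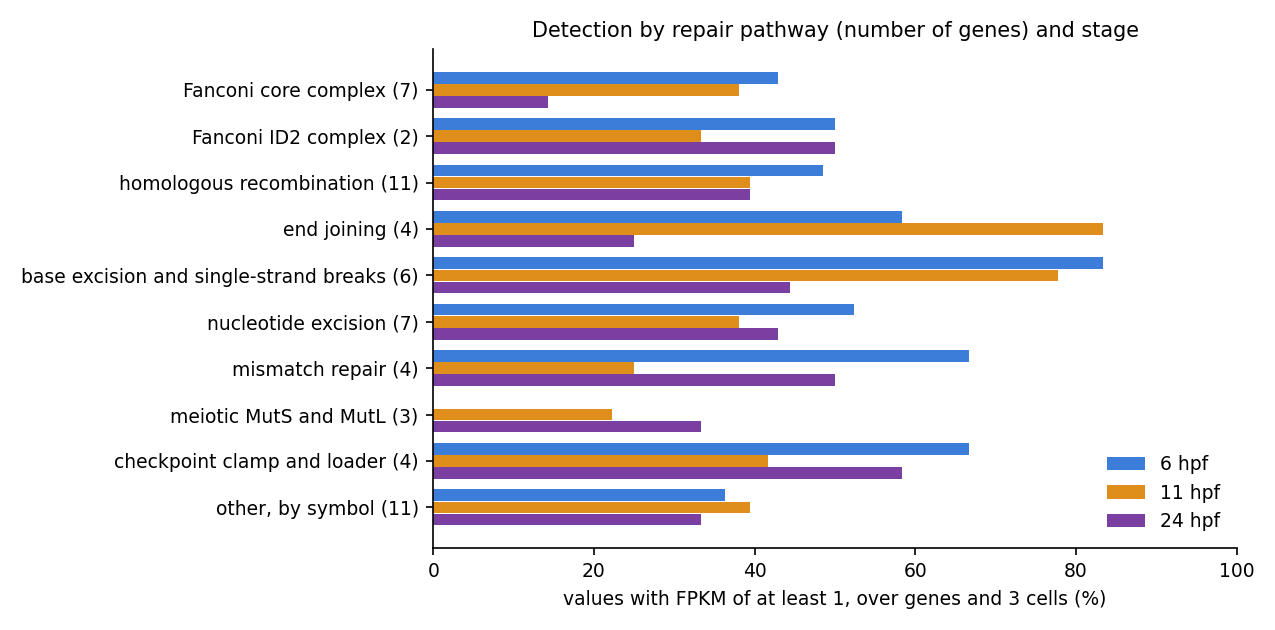
Share of values with an FPKM of at least 1 (percent, over the genes of a pathway and the 3 cells of a stage), by pathway, with the number of genes in brackets and rad18 alone left out. End joining has 58.3% at 6 hpf, 83.3% at 11 hpf and 25% at 24 hpf, and the Fanconi core complex, without fanca, has 42.9%, 38.1% and 14.3%. Each pathway holds only its genes in the choice by symbol. Over all genes that passed the filter the shares are 74.1%, 67.2% and 58.9%, while the bars also hold genes that did not pass.

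The 6 genes of base excision and single-strand break repair in the choice by symbol parted by stage. Of 18 values, 15 had an FPKM of at least 1 at 6 hpf, 14 at 11 hpf and then 8 at 24 hpf. These are 83.3%, 77.8% and 44.4%, against 74.1%, 67.2% and 58.9% over all genes that passed. The ligase lig3 (ENSDARG00000052553), which seals nicks together with its scaffold XRCC1 and also serves the mitochondrial genome, was 21.2, 10.1 and 11.4 FPKM at 6 hpf and 14.9, 9.75 and 10.9 at 11 hpf, and was listed at 0 in all 3 cells at 24 hpf. The scaffold xrcc1 (ENSDARG00000009494) was 26.04 and 24.2 in 6_1 and 6_2 and 8.52 and 2.38 in 11_1 and 11_3, and was likewise listed at 0 in every cell at 24 hpf. The ligase lig1 (ENSDARG00000060041), which joins the fragments of the lagging strand in replication, was 73.6, 55.4 and 127 FPKM at 6 hpf, 32.3, 29.1 and 48.0 in the 11 hpf cells and 42.8, 0 and 9.42 in those at 24 hpf. Every cell at 6 hpf lay above every later one. The log2 difference of lig1 was -1.20 for 11 minus 6 hpf (spread 0.70) and -2.23 for 24 minus 6 hpf (spread 2.82). Without 6_3 that for 11 minus 6 hpf was -0.81, less than 2-fold.

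The sensor of strand breaks parp1 (ENSDARG00000019529), which adds poly(ADP-ribose) chains at the site, ran the other way. Its FPKM was 26.5, 19.99 and 9.58 at 6 hpf, 27.2, 27.3 and 46.0 in the 11 hpf cells and 74.0, 51.2 and 64.7 in those at 24 hpf. The stages did not overlap, although the lowest cell at 11 hpf and the highest at 6 hpf are close. The log2 difference was 0.81 for 11 minus 6 hpf (spread 0.83), 0.90 for 24 minus 11 hpf (spread 0.50) and 1.71 for 24 minus 6 hpf (spread 0.76), and with single cells left out the last lay between 1.41 and 2.03. This order of all 9 cells, singled out after the values were seen, held for parp1 alone of the 41 genes and for 0.45% of all genes that passed. The reverse order held for 0.611% of all genes and for 0 of the 41. The order of parp1 depends on the scaling. Median-of-ratios factors, from 2003 genes above 0 in every cell, were 0.991 for 6_1, 1.11 for 11_1 and 1.08 for 11_2. Dividing FPKM by them puts 6_1 above 11_1 and 11_2. The median FPKM of detected genes also rose, at 24.1 to 28.7, then 30.7 to 33.4, then 33.6 to 45.6 at the 3 stages. The part of this in the rise of parp1 was not tested. The related enzymes parp2 and parp3 followed no stage, with parp2 listed at 0 in 5 cells and parp3 between 0.469 and 54.1 FPKM in 7.

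Nucleotide excision genes were uneven among themselves. The helicase ercc2 of the TFIIH complex (ENSDARG00000021985) was 58.7, 76.1 and 0 FPKM at 6 hpf, 20.2, 72.1 and 63.0 in the 11 hpf cells and 119, 35.1 and 40.1 in those at 24 hpf, with overlap between all stages. Its fellow helicase ercc3 was listed at 0 in all cells at 6 and 11 hpf and in 24_1, and was 14.9 and 29.5 in 24_2 and 24_3. The nuclease partners ercc1 and ercc4 were found together in 2 cells at 6 hpf, 1 at 11 hpf and none at 24 hpf. There ercc1 was 7.19 and 8.05 in 24_2 and 24_3, and ercc4 was 21.8 in 24_1. The other nuclease of the pathway, ercc5, did not exceed 0.680 FPKM. Of the pair that couples repair to transcription, ercc6 stood at 0 in each 24 hpf cell and ercc8 in each 11 hpf cell.

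In mismatch repair 8 of 12 values had an FPKM of at least 1 at 6 hpf, 3 at 11 hpf and then 6 at 24 hpf. The gene msh6, which recognises single mispaired bases, was 8.13, 12.2 and 5.32 FPKM at 6 hpf, 19.6 in 11_2 and 6.91 in 24_2, and was listed at 0 in the other later cells. The gene msh3, which recognises larger loops, had 10.8 FPKM in 6_2 and 8.75 in 24_2 alone. The meiotic homologues, which act in crossing over, were rare. The highest of them, msh4 (ENSDARG00000075826), was 14.9 and 15.7 FPKM in 24_1 and 24_2 and listed at 0 in the other 7 cells, and mlh3 was 19.0, 4.94 and 3.21 in 11_2, 11_3 and 24_3. The partner of MSH4, msh5, was listed at 0 everywhere.

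Among the damage signalling genes, 1 was found throughout. The ubiquitin ligase rad18 (ENSDARG00000027938), which marks PCNA so that translesion polymerases are called in, was present in all 9 cells, at 51.7, 62.4 and 23.7 FPKM at 6 hpf, 21.2, 36.2 and 14.2 in the 11 hpf cells and 46.9, 59.7 and 7.58 in those at 24 hpf, with overlap between all stages. The checkpoint clamp is a ring of 3 proteins that signals to the kinase ATR and is set on DNA by RAD17. Its loader rad17 (ENSDARG00000018918) was 20.4, 57.6 and 41.4 FPKM at 6 hpf, 13.8, 0 and 40.9 in the 11 hpf cells and 1.34, 28.2 and 23.3 in those at 24 hpf. The clamp subunit rad9a (ENSDARG00000056984) was 13.1, 41.8 and 12.8 FPKM at 6 hpf, 43.2, 0 and 0 in the 11 hpf cells and 0.310, 0 and 5.46 in those at 24 hpf. For 24 minus 6 hpf its cells did not overlap and the log2 difference was -3.01 (spread 1.73). The clamp subunit rad1 exceeded 8 FPKM in 5 cells and was at most 0.242 in the other 4, and rad9b was present in 6_2 and 24_2 alone.

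The last group holds 11 genes that share the symbols but were placed in none of these pathways. Higher at 24 than at 11 hpf were parp16, a mono-ADP-ribosyl transferase of the endoplasmic reticulum, and xrcc6bp1, related to a protease of the mitochondrion. The gene parp16 (ENSDARG00000018593) was listed at 0 in all 3 cells at 6 hpf, was 0, 36.3 and 37.1 FPKM at 11 hpf and was 67.2, 59.8 and 49.5 at 24 hpf. Its log2 difference for 24 minus 11 hpf was 1.23 (spread 3.03), and 0.67 without 11_1. The gene xrcc6bp1 (ENSDARG00000063686) was 0, 43.0 and 52.1 FPKM at 6 hpf, 3.69, 43.9 and 0 in the 11 hpf cells and 81.7, 108 and 67.4 in those at 24 hpf. Its log2 differences were 2.36 for 24 minus 11 hpf (spread 2.78) and 1.40 for 24 minus 6 hpf (spread 3.25), the last 0.83 without 6_1.

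In the same group parp12b (ENSDARG00000057974) was 23.8, 0 and 12.4 FPKM at 6 hpf, 43.8, 35.3 and 81.6 in the 11 hpf cells and 51.6, 0 and 31.9 in those at 24 hpf. Its log2 difference for 11 minus 6 hpf was 2.06 (spread 2.54), with no overlap. The helicase rad54l2 (ENSDARG00000063031), known as a partner of the androgen receptor in mammals, was 2.23, 5.04 and 5.58 FPKM at 6 hpf, 6.90, 9.37 and 0 in the 11 hpf cells and 0, 0.101 and 0 in those at 24 hpf. Its log2 difference for 24 minus 6 hpf was -2.35 (spread 0.57), and with a pseudocount of 10 it was no longer past 2-fold. The mitotic helicase ercc6l was found in 5 cells at 1.92 to 21.0 FPKM, ercc6l2, parp8 and parp12a in 2 or 3 cells, and parp4, parp6a and parp6b were listed at 0 throughout.

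**Figure D4:**
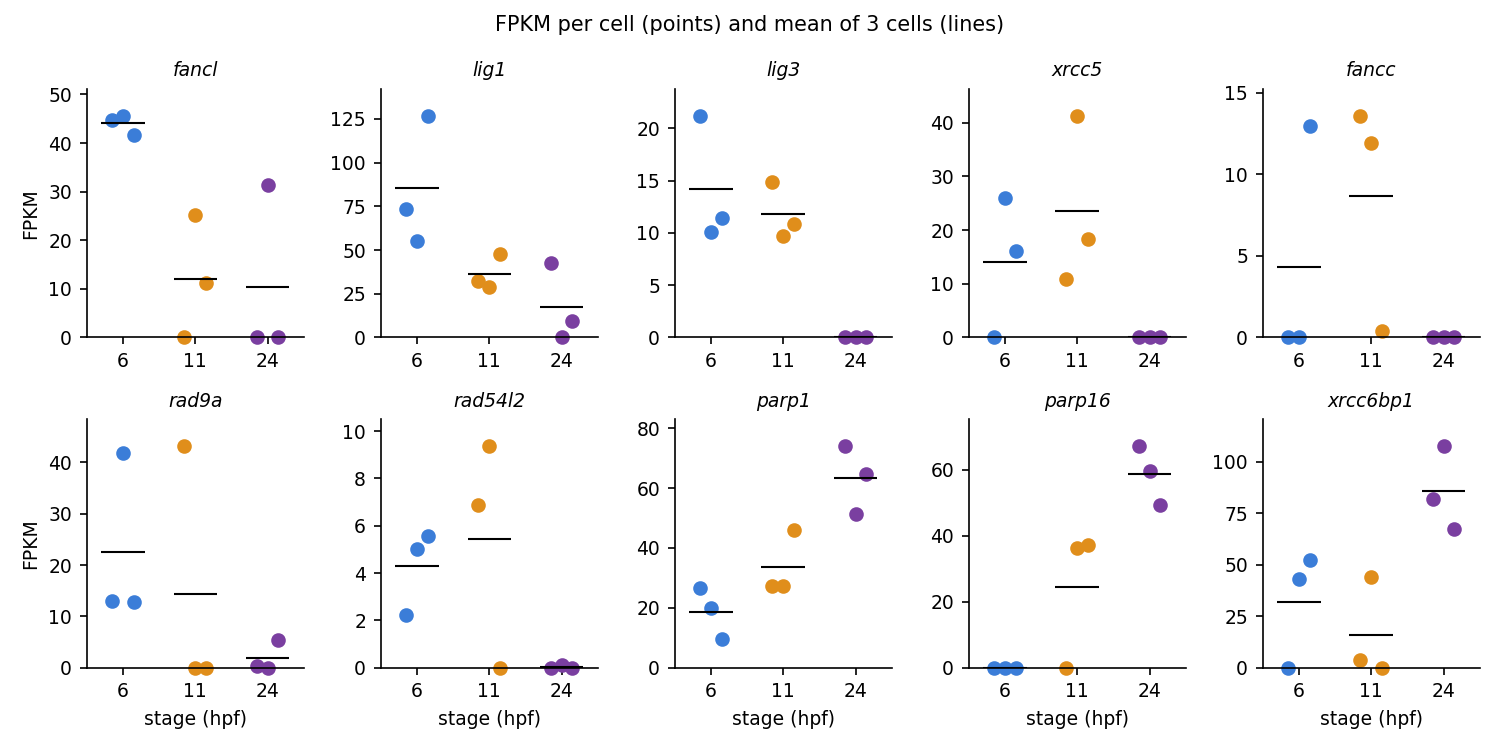
FPKM of 10 repair genes in each PGC (points) with the mean of the 3 cells of a stage (lines), by stage in hpf. Each panel has its own axis from 0. The genes lig3, xrcc5 and fancc are at 0 in all cells at 24 hpf, and parp1 reaches 51.2 to 74.0 FPKM there.

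To set these genes against the transcriptome, those with a log2 difference of at least 1 in size (2-fold) and no overlap between the cells of the stages were counted among genes that passed the filter. For 11 against 6 hpf, 1 of the 41 repair genes was higher at 11 hpf, parp12b (2.44%), against 4.89% of all genes, and 3 were lower (7.32%), fancl and lig1 among them, against 6.19% of all genes. For 24 against 11 hpf, 2 were higher at 24 hpf, parp16 and xrcc6bp1 (4.88%), against 7.89% of all genes, and 3 were lower, fancc, lig3 and xrcc5 (7.32%), against 9.79%. For 24 against 6 hpf, 3 were higher at 24 hpf, parp1, parp16 and xrcc6bp1 (7.32%), against 9.83%, and 5 were lower, fancl, lig1, lig3, rad54l2 and rad9a (12.2%), against 14.2%. None of the 19 genes below the filter met these criteria, which they could hardly do with fewer than 3 cells at an FPKM of 1. The shares of repair genes are close to those of all genes in each pair of stages, so as a class they did not stand out by this count. It says little of the class, since each share rests on 1 to 5 genes. A gene listed at 0 in some cell of both stages cannot meet these criteria, and zeros were more frequent among the 41 genes (38.5% of values, against 30.0%). The comparisons share the cells of a stage and are not independent.

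The totals of 4, 5 and 8 genes grow when a cell is left out, since 2 cells overlap less often by construction. For 11 against 6 hpf there were 8 genes without 6_1, 6_3, 11_1 or 11_3, 7 without 11_2 and 6 without 6_2. For 24 against 11 hpf there were 8 without 11_2, 11_3, 24_1 or 24_2 and 7 without 11_1 or 24_3. For 24 against 6 hpf there were 10 to 12. The shares of all genes grew as well, to 6.91% to 9.45% higher and 9.52% to 10.5% lower for 11 against 6 hpf, and to 9.26% to 12.5% higher and 12% to 16.4% lower for 24 against 11 hpf. For 24 against 6 hpf they were 11.2% to 15.3% higher and 16.7% to 19.4% lower.

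The median log2 difference over the 41 genes was -0.25 for 11 minus 6 hpf, against 0.03 over all genes, -0.19 for 24 minus 11 hpf, against -0.08, and -0.53 for 24 minus 6 hpf, against -0.10. These medians hang on single cells. Without 6_1 that for 11 minus 6 hpf was 0.13 and without 11_3 it was 0.04, without 11_2 that for 24 minus 11 hpf was 0.51 and without 24_1 it was -0.76, and without 6_1 that for 24 minus 6 hpf was -0.033. The difference of a repair gene exceeded the spread between cells for 5 of 41 genes (12.2%) for 11 minus 6 hpf, against 21.5% of all genes, and for 12 of 41 (29.3%) for 24 minus 11 hpf, against 31.9%. For 24 minus 6 hpf it did so for 12 of 41 (29.3%), against 35.0%.

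Several repair genes went undetected by 24 hpf. Those with an FPKM of 1 or more in some cell at 6 hpf and at 11 hpf but below 1 in all 3 cells at 24 hpf numbered 9 of the 41 (22.0%), against 13.7% of all genes that passed. Of 47 other repair genes that passed, from the lists described below, 7 met the same condition (14.9%), a share close to that of all genes. The 41 also have a lower median level than all genes (12.5 against 17.8 FPKM), and the part of this in their count was not tested. The 9 genes are ercc6, fancc, lig3, lig4, parp12a, rad51b, rad54l2, xrcc1 and xrcc5. Such genes passed the filter through cells at 6 and 11 hpf alone, which outnumber those at 24 hpf, so the filter favours this pattern. It dropped ercc3, msh4 and parp8, found in 2 cells at 24 hpf and none earlier. The same filter holds for all genes, but the 41 were found in fewer cells. Of them 4.88% reached an FPKM of 1 in all 9 cells and so could not meet the condition, against 18.5% of all genes. The part of this in their count was not tested either. No test of the difference between these shares was possible with 1 embryo per stage. Without 24_1, the cell with the most missed genes, it was 12 genes (29.3%), against 18.3% of all, and without 24_2 it was 15 (36.6%), against 22.9%. Without 24_3 it was 10 (24.4%), against 21.8%, the closest of these pairs of shares. Among 7 pairs of known partners, chosen after the values were seen, 1 pair was never found in the same cell at 6 hpf, 3 at 11 hpf and 5 at 24 hpf. Mean detection of the 41 genes fell as well, from 68.3% to 61.8% and 48.8%. No share was computed for other pairs of genes, so this count says nothing particular to partners. The pair ercc2 and ercc3 was found together at 24 hpf only.

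Other repair genes, from lists chosen by symbol, were counted in the same way. Of 64 such entries found, with slx4 entered more than once, 47 passed the filter. By the same criteria 1 of these was higher and 2 were lower at 11 than at 6 hpf (2.13% and 4.26%, against 4.89% and 6.19% of all genes). At 24 hpf 2 were higher and 8 lower than at 11 hpf (4.26% and 17.0%, against 7.89% and 9.79% of all genes), and 2 were higher and 7 lower than at 6 hpf (4.26% and 14.9%, against 9.83% and 14.2%). Of genes that act with the Fanconi pathway, uhrf1 and the nuclease gene fan1 stood at 0 in every 24 hpf cell, against 8.68 to 23.3 and 7.19 to 17.1 FPKM at 11 hpf. The deubiquitinase gene usp1, which reverses the mark on FANCD2, was 0, 14.1 and 19.0 at 24 hpf, against 71.7, 31.0 and 37.8 at 11 hpf. The end resection gene rbbp8 was listed at 0 at 24 hpf, against 16.2 to 26.6 at 11 hpf. The flap nuclease gene fen1 was 54.5 to 135.5 at 24 hpf, against 167 to 252 at 6 hpf. At 11 hpf fen1 was 175, 67.4 and 352, which overlaps the cells at 24 hpf.

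Higher at 24 hpf was rnf168, a ubiquitin ligase of the break response, with 22.9, 47.7 and 44.2 FPKM, against 0, 11.8 and 0 at 11 hpf. The other was tdg.2, a thymine glycosylase gene with 27.9, 54.5 and 66.2 FPKM, against 23.0, 0 and 11.3 at 11 hpf. Its neighbour in name, tdg.1, went the other way, with at most 0.408 at 24 hpf, against 14.0 to 37.0 at 11 hpf, and how reads were divided between these 2 copies is not known. Also lower at 24 hpf were polb and rev3l for 24 against 11 hpf, and apex2, h2afx and ube2t for 24 against 6 hpf. For 11 against 6 hpf tdg.1 was higher and chek1 and pms2 were lower at 11 hpf.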

How the data were processed

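RNA of each PGC was amplified by a modified form of Smart-seq2, giving 9 libraries. Per the submitters' notes and methods, Trimmomatic, HISAT2 2.0.5 and StringTie 1.3.3 were run on danRer10. The authors deposited FPKM per gene and cell, unfiltered and without counts or coordinates, so counting error and depth per gene are unknown.

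Python 3.11.15, numpy 2.4.6, pandas 2.3.3 and matplotlib 3.10.9 were used here. A gene was kept if 3 or more cells reached an FPKM of 1. Since a stage is 1 embryo, no p-value was computed. The calculation was tested on simulated data, with changes set only in well detected genes above 0 in every cell. Of the repair genes only parp1 and rad18 are such, so the test says nothing of calls on the others. Genes described with all cells were those past 2-fold without overlap between stages, those reaching an FPKM of 1 in each of the 9 cells, and the highest of each pathway by mean, 19 genes. Some genes are counted in totals but not reported here. Other single-cell values given, and the partner pairs, were chosen after the data were seen. The genes, pathways and lists were chosen with earlier results of these data known. Alternatives were other pseudocounts, filters, scalings, stage means and leaving out each cell. No sequence or genome position was used here.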

Additional observations from a re-analysis of the deposited data

How the results depend on the processing

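Limits lie in the sampling of 1 embryo per stage, in zeros of unknown origin and in FPKM without read counts per gene. No paired analysis was possible because the cell numbers link no cells between stages and no test was run. The 4, 5 and 8 genes past 2-fold without overlap were the same number with a pseudocount of 0.1, no filter, a stricter filter, a common total per cell, median-of-ratios factors and means of log values. With a pseudocount of 10 they numbered 4, 3 and 7, since fancc and parp16 dropped out for 24 minus 11 hpf and rad54l2 for 24 minus 6 hpf. Leaving out single cells gave 6 to 8 genes for 11 minus 6 hpf, 7 to 8 for 24 minus 11 hpf and 10 to 12 for 24 minus 6 hpf. It gave 7 to 15 genes found at 6 and 11 hpf but not detected at 24 hpf, the full set included. The median log2 difference ranged from -0.42 to 0.13, from -0.76 to 0.51 and from -0.73 to -0.033 for the same pairs. For 24 minus 6 hpf it was -0.22 with a pseudocount of 10 and -0.85 with means of log values, against -0.53. Median-of-ratios factors moved the median of all genes for 24 minus 6 hpf to -0.32, against -0.10, and that of the repair genes to -0.74. Of 456 recomputed differences of the 19 genes, 446 shifted by no more than their spread and 10 by more. This count says little of robustness, since the median spread of the repair genes was 2.79 to 3.05 between pairs of stages. None of the differences past 2-fold without overlap changed sign, which leaving out a cell cannot bring about where no cells overlap. Other differences did change sign. For 24 minus 11 hpf rad9a was 1.55 without 11_1, against -2.40, a shift beyond its spread. Within their spread, fancd2 was -2.18 without 24_1, against 0.99, and fancl was 0.80 without 11_2, against -0.19. The sign of ercc2, rad17 and xrcc6 for this pair also changed when single cells were left out. With an FPKM of at least 0.1 or 5 as the threshold of detection, the mean number of repair genes per cell was 32.0 or 27.3 at 6 hpf, 28.3 or 24.7 at 11 hpf and 24.3 or 21.7 at 24 hpf.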

Other observations

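Some repair genes fall outside the choice by symbol because the table writes them in capitals. Of these XRCC2, a gene of homologous recombination, had 17.8 FPKM in 6_2 and 25.7 in 24_3 and was listed at 0 in the other 7 cells. PARP14 was at 4.196 and 5.69 FPKM in 6_1 and 6_2 and listed at 0 elsewhere, PARP11 did not exceed 0.287, and PARP9 was listed at 0 in all 9 cells. The Fanconi core gene fanca falls outside the choice because it carries a clone name, and its values were not followed.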
